A study of Homo sapiens with 12 samples.

Results

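The genes described here are 40 genes of the lysosome, the acidic compartment in which cells break down protein, lipid and sugar chains. They were chosen by gene symbol, as structural proteins of the lysosomal membrane, enzymes of its interior, helpers of these enzymes, proteins of cholesterol and ion export, and subunits of the pump that acidifies it. All 40 were found among the 57905 genes of the deposited table, and 39 passed the filter on low values, which 14699 genes passed in all. CTSK, a cathepsin best known from bone-resorbing osteoclasts, did not pass and stayed below 1.5 FPKM in every library.

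RNA was sequenced from 3 established human lung cancer lines with a mutant epidermal growth factor receptor (EGFR), namely PC9, HCC827 and HCC4006. Dormant cells were kept for 2 weeks in 100 nM osimertinib, an EGFR inhibitor, together with 30 nM trametinib, a MEK inhibitor, on 15 cm plates. Control cells had the solvent DMSO for 24 h on 10 cm plates. Each line thus gave 1 dormant group and 1 DMSO group of 2 libraries each, 12 libraries in 6 groups. Drug, time in culture and plate size differ together between the groups and cannot be told apart. The plates were set up in duplicate, and nothing states that these were separate cultures, so p-values measure only the spread between these samples. In bulk RNA, fewer cells of a kind and less RNA per cell cannot be told apart either.

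Lysosomal enzymes are made in the endoplasmic reticulum, carry mannose 6-phosphate as an address label, and become active at the low pH that a vacuolar proton pump maintains. LAMP proteins line the inside of the membrane with a coat of sugar chains. Many of these genes share a DNA motif built around CACGTG, through which the MiT factors TFEB, TFE3 and MITF are known to raise their transcription when nutrients or the kinase mTORC1 are low.

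Values are FPKM, in which fragment numbers are set per unit of gene length and of sequenced library. Comparisons between libraries depend on this scaling. The sum over all genes ran from 793883 FPKM in the first dormant HCC4006 library to 1159352 FPKM in the second DMSO HCC827 library. Results under other scalings are given below. A pair of libraries differed from their own replicates. Replicates correlated at Pearson's r of 0.654 in dormant HCC4006 and 0.909 in DMSO HCC827, against 0.979 to 0.991 in the other 4 groups, across the genes tested. The glycolytic gene GAPDH was listed at 6.7 FPKM in the second dormant HCC4006 library, and the actin gene ACTB at 1842.5 FPKM in the second DMSO HCC827 library, against at least 7915.2 FPKM of ACTB in every library other than these 2. Results are therefore given with all 12 libraries and, where they differ, without this divergent pair of libraries. The pair is the second of dormant HCC4006 and the second of DMSO HCC827. Leaving it out leaves 1 library in each of these groups. In that fit the spread comes only from the groups with 2 libraries. As a check of the treatment, DUSP6, a phosphatase gene induced by MEK and ERK signalling, was listed at 0 in all dormant PC9 and HCC827 libraries and at 0.255 and 4.25 FPKM in dormant HCC4006. In DMSO cells it reached 3.54 and 3.58 FPKM in PC9, 13.1 and 2.99 FPKM in HCC827, and 78.4 and 98.7 FPKM in HCC4006. All 8 epithelial markers were found, with sums of 976.01 to 23019.7 FPKM in dormant and 1292.2 to 16770.15 FPKM in DMSO libraries, the lowest of each in the divergent pair. In HCC4006 they summed to 5853.02 and 976.01 FPKM in dormant cells, below 11000.93 and 12205.96 FPKM in DMSO cells. The keratin genes KRT7, KRT8, KRT18 and KRT19 were each lower in dormant HCC4006, while EPCAM, CDH1, CDH3 and ELF3 overlapped between dormant and DMSO HCC4006. EPCAM, for example, had 208.8 and 428.8 FPKM in dormant and 194.1 and 286.2 FPKM in DMSO HCC4006. Since macrophages are rich in lysosomes, 10 leukocyte markers were summed as well: they reached 0.98 to 6.98 FPKM in dormant and 0.55 to 3.0 FPKM in DMSO libraries, with AIF1 at 0 throughout and 8 of the 10 under 1 FPKM in every library. The sum of 7 fibroblast markers was 376.3 and 262.96 FPKM in dormant HCC4006 and at most 3.88 FPKM in every other library. COL1A2 made up nearly all of it, at 368 and 249.6 FPKM in dormant HCC4006, with COL1A1 at 7.45 and 12.2 FPKM, COL3A1 and DCN at 0, and LUM, PDGFRA and PDGFRB at 0 to 1.125 FPKM. The 4 endothelial markers found summed to at most 3.05 FPKM. The part of the epithelial and fibroblast markers in the HCC4006 results was not tested.

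Lysosomal RNA was more abundant in dormant cells of every line, apart from the divergent dormant HCC4006 library. The 40 genes summed to 5247.3 and 6447.0 FPKM in dormant PC9, against 2172.6 and 1995.7 FPKM in DMSO PC9. In HCC827 the sums were 4735.9 and 4763.8 FPKM in dormant cells and 1857.5 and 1093.8 FPKM in DMSO cells. In HCC4006 they were 5319.7 and 1002.2 FPKM in dormant cells and 2712.9 and 2834.0 FPKM in DMSO cells. Dormant and DMSO libraries did not overlap in PC9 and HCC827. In HCC4006 the first dormant library lay above both DMSO libraries and the second below both. None of the 40 genes was at 0 in any library.

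Differences of dormant from DMSO cells (dormant minus DMSO) are in log2(FPKM + 1) units and carry a standard error. They were called at a Benjamini-Hochberg adjusted p under 0.05 in limma over all 14699 genes. Averaged over the 3 lines, 12 of the 39 tested genes rose and 0 fell, against 10.9% of all tested genes that rose and 4.55% that fell. At an unadjusted p under 0.05, 17 were higher and 1 was lower, where 22.6% of all genes were higher and 9.64% lower. The median difference of the 39 genes was 1.06, with 36 of them positive, against a median of 0.22 over all genes. LAMP1, CTSO and CTSZ passed the filter through their dormant libraries only. Of the 36 genes that also pass it in DMSO cells, 10 rose. LAMP1 and CTSO are also among the genes that rose without the 2 divergent libraries, given next. Without the 2 divergent libraries, 32 of the 39 genes rose and 1, CTSC, fell, where 30% of all genes rose and 12.8% fell. The 12 genes called with all libraries were among these 32, and the medians were 0.99 for the 39 genes and 0.20 for all genes. Under median of ratios and quantile scaling, which set the median of all genes to 0.03, the members' medians were 0.76 and 0.86, and 10 members rose and CTSC fell in each.

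**Figure D1:**
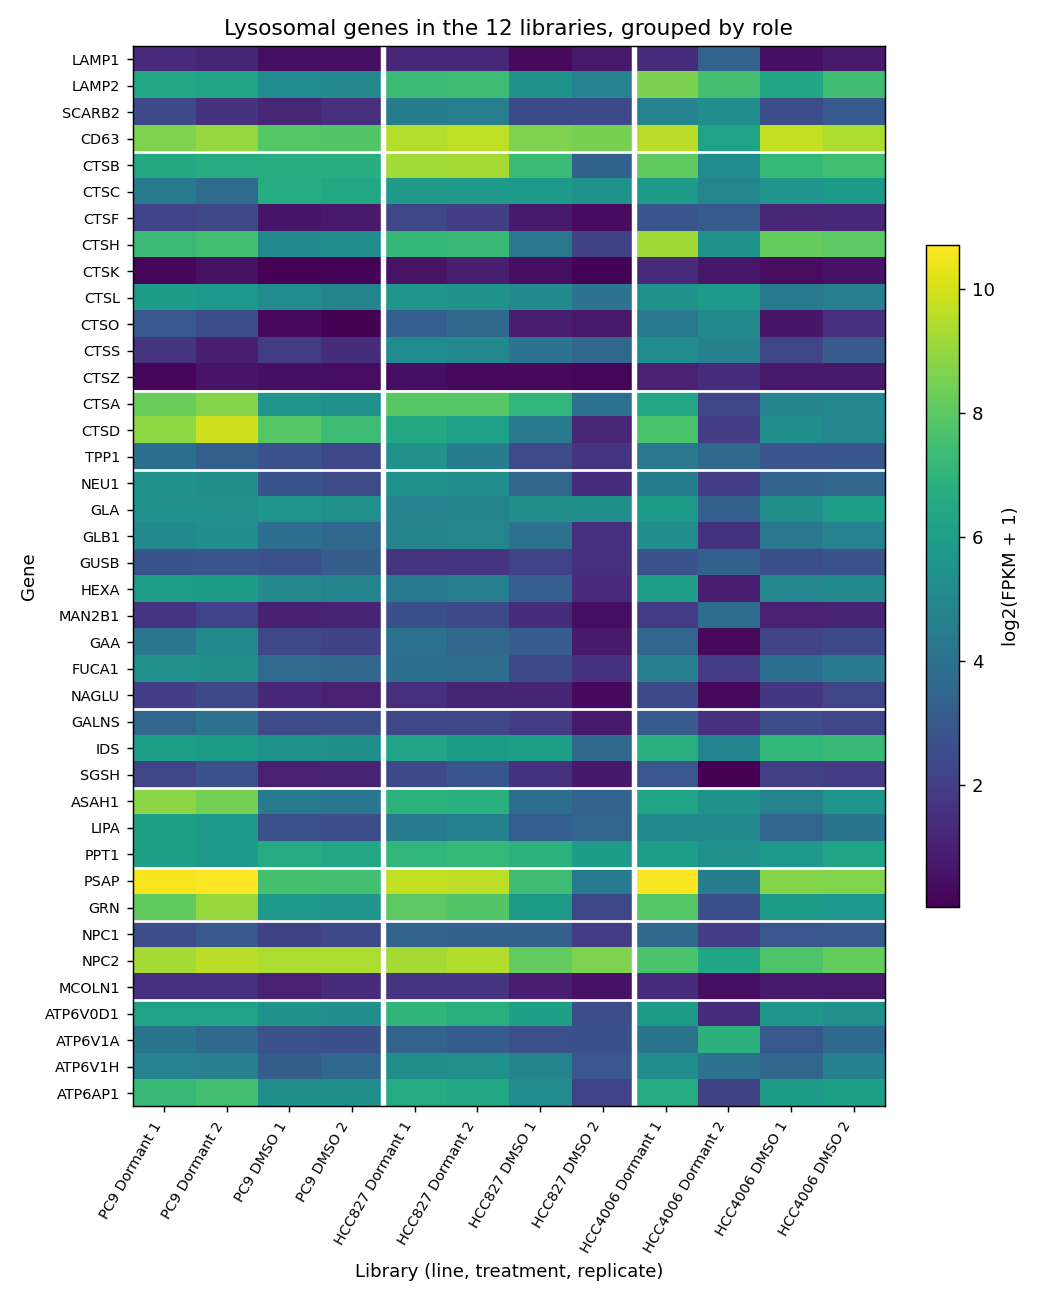
Level of each of the 40 lysosomal genes in each of the 12 libraries, as log2(FPKM + 1) on a colour scale, with genes in rows grouped by role between white lines and libraries in columns grouped by line. Most rows are brighter in dormant than in DMSO PC9 and HCC827, and PSAP, CTSD and GRN are dark in the second dormant HCC4006 library.

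Of the 4 structural membrane proteins, 3 rose and CD63 did not pass the test. SCARB2, the receptor that carries beta-glucocerebrosidase to the lysosome, had 4.29 and 2.07 FPKM in dormant PC9, 21.8 and 23.2 FPKM in dormant HCC827, and 26.2 and 38.7 FPKM in dormant HCC4006. DMSO cells had 1.28 and 1.77 FPKM in PC9, 4.50 and 4.34 FPKM in HCC827, and 5.13 and 7.36 FPKM in HCC4006. Every dormant library lay above both DMSO libraries of its line, by a mean difference of 1.67 ± 0.25 (adjusted p = 0.00251). LAMP2, a main coat protein of the membrane and also the receptor of chaperone-mediated autophagy, reached 84.0 and 76.8 FPKM in dormant PC9, 158 and 163 FPKM in dormant HCC827, and 387 and 189.7 FPKM in dormant HCC4006. Its DMSO values were 36.3 and 32.1 FPKM in PC9, 44.0 and 26.5 FPKM in HCC827, and 79.3 and 174 FPKM in HCC4006. LAMP2 thus rose without overlap in any line (1.54 ± 0.32, adjusted p = 0.012), although the gap in HCC4006 was narrow between the lower dormant and the higher DMSO library.

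LAMP1, the companion coat protein, was listed at far lower levels than LAMP2. Whether that low level is right could not be checked from FPKM, and this limit goes with every count that includes LAMP1. It had 1.46 and 1.19 FPKM in dormant PC9, 1.35 and 1.35 FPKM in dormant HCC827, and 1.69 and 9.43 FPKM in dormant HCC4006, against 0.225 to 0.76 FPKM in the 6 DMSO libraries. It rose by 1.07 ± 0.30 (adjusted p = 0.0397), but the call was lost when any of 10 of the 12 libraries was left out, and under median of ratios or quantile scaling. Without the 2 divergent libraries its difference was 0.83 ± 0.12 (adjusted p = 0.000818). CD63, a tetraspanin of late endosomes, lysosomes and exosomes, stood at 403 and 521 FPKM in dormant PC9 and 235 and 229.9 FPKM in DMSO PC9. In HCC827 it stood at 739.7 and 816 FPKM in dormant and 404 and 368 FPKM in DMSO cells. These groups did not overlap, whereas in HCC4006 the first dormant library, at 776 FPKM, lay between the DMSO values of 848 and 673 FPKM and the second, at 72.9 FPKM, below both. The mean difference was 0.11 ± 0.51 with all libraries and 0.65 ± 0.13 (adjusted p = 0.00402) without the divergent pair.

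The cysteine cathepsins, papain-like proteases that each cut protein in a different way, did not all pass the test. Of 8 tested, CTSO, CTSF, CTSS and CTSL rose, and CTSB, CTSC, CTSH and CTSZ did not pass, which does not show them unchanged. Mean differences of those that did not pass were 1.81 for CTSH, 1.04 for CTSB, 0.17 for CTSZ and -0.87 for CTSC. That of CTSL, which passed, was 0.95. CTSO, a little-studied member of the family, had 6.89 and 4.94 FPKM in dormant PC9, 8.52 and 12.03 FPKM in dormant HCC827, and 19.5 and 33.8 FPKM in dormant HCC4006. It was close to absent from DMSO cells, at 0.205 and 0.09 FPKM in PC9, 0.925 and 0.695 FPKM in HCC827, and 0.605 and 1.88 FPKM in HCC4006. The groups were far apart in every line. CTSO passed the filter on low values through its dormant libraries only. It had the largest mean difference of the 39 genes in all 12 libraries (2.95 ± 0.26, adjusted p = 0.000206). It also passed the test in each line on its own. The ratio of mean FPKM, dormant over DMSO, was 40.1 in PC9, 12.7 in HCC827 and 21.5 in HCC4006. These ratios rest on low DMSO means of 0.1475, 0.81 and 1.24 FPKM.

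CTSF, cathepsin F, which is mutated in a form of neuronal ceroid lipofuscinosis, was the other gene called in each line. Its dormant values were 3.5 and 4.14 FPKM in PC9, 3.96 and 3.1 FPKM in HCC827, and 6.43 and 7.72 FPKM in HCC4006. The DMSO values were 0.565 and 0.715 FPKM in PC9, 0.755 and 0.295 FPKM in HCC827, and 1.31 and 1.36 FPKM in HCC4006. Its differences of 1.55 ± 0.33 in PC9, 1.58 ± 0.33 in HCC827 and 1.78 ± 0.33 in HCC4006 lay within 1 SE of each other, and the mean was 1.64 ± 0.19 (adjusted p = 0.000789). The call in HCC827 was lost in 9 of 12 cases of leaving out a library and that in PC9 in 8, while the mean was called in every case. CTSL, a broad protein-degrading endopeptidase, had 43.6 to 58.7 FPKM across the dormant libraries and 16.4 to 35.5 FPKM across the DMSO libraries. It rose by 0.95 ± 0.27 (adjusted p = 0.0413) with no overlap in any line, a call lost in 9 of the 12 leave-out cases and under both scalings.

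CTSS, a cathepsin that keeps its activity near neutral pH, was called in the mean and in HCC4006. It had 2.14 and 0.94 FPKM in dormant PC9, 36.5 and 31.8 FPKM in dormant HCC827, and 36.8 and 24.4 FPKM in dormant HCC4006. In DMSO cells it had 2.72 and 1.71 FPKM in PC9, 16.3 and 11.2 FPKM in HCC827, and 3.86 and 7.49 FPKM in HCC4006. The groups were separated in HCC4006 (2.27 ± 0.48, adjusted p = 0.0262) and in HCC827, and overlapped in PC9 (-0.36 ± 0.48). The mean difference was 1.06 ± 0.28 (adjusted p = 0.0302), and the test of a difference between lines gave an adjusted p of 0.209 with all libraries and 0.0263 without the divergent pair. Both calls were lost in 8 of the 12 leave-out cases.

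CTSC, dipeptidyl peptidase I, which activates granule proteases in leukocytes, was the only member called lower in any line with all libraries. Its values were 21.6 and 12.9 FPKM in dormant PC9, against 100.3 and 83.7 FPKM in DMSO PC9. The groups were far apart, with a difference of -2.39 ± 0.48 (adjusted p = 0.0323), a call lost in 8 of 12 leave-out cases and with a replicate block. In HCC827 it had 54.1 and 54.5 FPKM in dormant and 56.0 and 45.2 FPKM in DMSO cells, and in HCC4006 56.2 and 30.0 FPKM in dormant and 47.7 and 57.4 FPKM in DMSO cells. Both of those lines overlapped. The mean of the 3 lines was -0.87 ± 0.28 with an adjusted p of 0.0616, which passed the test under median of ratios scaling, under quantile scaling and without the 2 divergent libraries.

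CTSB, an endopeptidase that is among the most abundant cathepsins, was highest in dormant HCC827. It had 607 and 623 FPKM in dormant HCC827, against 160.2 and 9.31 FPKM in DMSO HCC827. In PC9 it had 87.9 and 100.6 FPKM in dormant and 103 and 100.8 FPKM in DMSO cells, and in HCC4006 276 and 35.8 FPKM in dormant and 144 and 178 FPKM in DMSO cells. Its HCC827 difference was 3.92 ± 1.19 with an adjusted p of 0.106, and 1.93 with an adjusted p of 0.000704 without the divergent libraries. CTSH, an aminopeptidase that processes surfactant protein in lung epithelium, had 159 and 179 FPKM in dormant PC9 and 33.8 and 37.6 FPKM in DMSO PC9. In HCC827 it had 142 and 151 FPKM in dormant and 19.1 and 3.35 FPKM in DMSO cells, and in HCC4006 589 and 43.6 FPKM in dormant and 291 and 256 FPKM in DMSO cells. Its mean difference was 1.81 ± 0.61 (adjusted p = 0.0724), and 2.06 ± 0.12 (adjusted p = 6.64e-06) without the 2 libraries. CTSZ, a carboxypeptidase, did not exceed 1.72 FPKM in any library.

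Among the other peptidases, TPP1, a tripeptidyl peptidase whose loss causes late infantile neuronal ceroid lipofuscinosis, rose. It had 14.7 and 8.66 FPKM in dormant PC9, 43.0 and 22.8 FPKM in dormant HCC827, and 18.2 and 12.2 FPKM in dormant HCC4006. In DMSO cells it had 5.52 and 4.07 FPKM in PC9, 4.78 and 2.17 FPKM in HCC827, and 6.17 and 6.46 FPKM in HCC4006. No dormant library overlapped a DMSO library of its line, and the mean difference was 1.71 ± 0.29 (adjusted p = 0.00459), with HCC827 called on its own (2.92 ± 0.51, adjusted p = 0.0115). CTSA, protective protein, which shields beta-galactosidase and sialidase, and the aspartic protease CTSD had a wider spread between libraries. CTSA had 306 and 420.3 FPKM in dormant and 48.3 and 41.7 FPKM in DMSO PC9, and CTSD 481 and 977 FPKM in dormant and 236 and 164 FPKM in DMSO PC9. In the second dormant HCC4006 library they were at 3.82 and 2.96 FPKM, against 86.5 and 208 FPKM in the first. Neither passed the test with all libraries (CTSA 1.59 ± 0.71, CTSD 1.69 ± 0.90), and both did without the divergent libraries (CTSA 1.79 ± 0.14, adjusted p = 3.2e-05; CTSD 2.11 ± 0.23, adjusted p = 0.000154).

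Of 9 glycosidases, which remove sugars step by step from glycoproteins and glycolipids, 2 rose with all libraries and 7 without the divergent pair. NEU1, the lysosomal sialidase that needs CTSA for its activity, had 45.4 and 40.0 FPKM in dormant PC9, 43.7 and 37.6 FPKM in dormant HCC827, and 21.9 and 2.9 FPKM in dormant HCC4006. Its DMSO values were 6.0 and 4.81 FPKM in PC9, 10.9 and 1.73 FPKM in HCC827, and 9.82 and 10.8 FPKM in HCC4006. PC9 and HCC827 were separated without overlap, and in HCC4006 only the first dormant library lay above the DMSO libraries. The mean difference of 1.79 ± 0.49 (adjusted p = 0.0348) was lost in 9 of 12 leave-out cases, and was 1.86 ± 0.14 (adjusted p = 2.68e-05) without the divergent libraries. MAN2B1, the alpha-mannosidase, had 2.13 and 3.62 FPKM in dormant PC9, 5.25 and 4.5 FPKM in dormant HCC827, and 2.87 and 13.0 FPKM in dormant HCC4006, against 0.365 to 1.69 FPKM in the 6 DMSO libraries. It rose by 1.45 ± 0.33 (adjusted p = 0.0182), and by 0.97 ± 0.17 (adjusted p = 0.00181) without the 2 libraries; the call with all libraries was lost in 8 of 12 leave-out cases.

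GAA, the enzyme of glycogen breakdown that is deficient in Pompe disease, had 17.7 and 34.7 FPKM in dormant PC9, against 4.17 and 3.42 FPKM in DMSO PC9. Its mean difference over the lines was 1.29 ± 0.57, which did not pass the test. FUCA1, the fucosidase, and GLB1, the beta-galactosidase behind the usual senescence stain, differed by 0.91 ± 0.44 and 0.79 ± 0.63. HEXA, the hexosaminidase deficient in Tay-Sachs disease, and NAGLU, which acts on heparan sulfate, differed by 0.54 ± 0.75 and 0.32 ± 0.35. These 5 passed the test without the divergent libraries, at 1.44 for GAA, 1.22 for FUCA1, 0.97 for GLB1, 1.07 for HEXA and 0.53 for NAGLU. GUSB, the beta-glucuronidase often used as a reference gene, and GLA, the enzyme deficient in Fabry disease, did not pass in either fit. GUSB had 2.16 to 9.27 FPKM in dormant and 1.83 to 8.19 FPKM in DMSO libraries (0.03 ± 0.24), and GLA had a difference of -0.56 ± 0.41, with 26.3 and 27.98 FPKM in dormant HCC827 below 38.3 and 39.7 FPKM in DMSO HCC827.

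None of the 3 sulfatases, which remove sulfate from mucopolysaccharides, passed the test with all libraries. GALNS differed by 0.73 ± 0.33, SGSH by 0.83 ± 0.44 and IDS by 0.12 ± 0.46. GALNS and SGSH were called without the divergent libraries, at 0.80 and 1.17, and IDS was not. IDS, the enzyme deficient in Hunter syndrome, had 111 and 28.2 FPKM in dormant HCC4006, below its 137 and 154 FPKM in DMSO HCC4006, whereas in PC9 dormant cells (65.2 and 57.5 FPKM) lay above DMSO cells (43.9 and 40.1 FPKM).

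Of the lipid and thioester hydrolases, both lipid enzymes rose strongly. ASAH1, acid ceramidase, which splits ceramide into sphingosine and fatty acid, reached 468 and 352 FPKM in dormant PC9, 122 and 112 FPKM in dormant HCC827, and 77.6 and 43.2 FPKM in dormant HCC4006. In DMSO cells it had 21.6 and 18.0 FPKM in PC9, 14.1 and 9.41 FPKM in HCC827, and 27.2 and 48.7 FPKM in HCC4006. The gap was wide in PC9 and HCC827, and the HCC4006 groups overlapped. ASAH1 was called in PC9 (4.30 ± 0.51, adjusted p = 0.00171), in HCC827 (3.24 ± 0.51, adjusted p = 0.0077) and in the mean (2.73 ± 0.29, adjusted p = 0.000505), with 0.65 ± 0.51 in HCC4006. LIPA, lysosomal acid lipase, which frees cholesterol and fatty acids from lipoprotein lipid, had 67.4 and 54.7 FPKM in dormant PC9, 19.9 and 25.7 FPKM in dormant HCC827, and 34.4 and 33.7 FPKM in dormant HCC4006. Its DMSO values were 5.4 and 4.84 FPKM in PC9, 8.29 and 10.5 FPKM in HCC827, and 10.5 and 17.1 FPKM in HCC4006. All lines were separated, and LIPA was called in PC9 (3.34 ± 0.43, adjusted p = 0.00271) and in the mean (1.94 ± 0.25, adjusted p = 0.00114). PPT1, which removes palmitate from proteins, did not pass the test (-0.07 ± 0.29), with 67.7 and 55.0 FPKM in dormant and 98.1 and 84.0 FPKM in DMSO PC9. In HCC827 its dormant values of 133.5 and 144.6 FPKM lay above its DMSO values of 120.5 and 60.7 FPKM. The HCC4006 groups overlapped.

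PSAP, the precursor of the saposins that present sphingolipids to their enzymes, had the highest mean of the 40 genes in dormant cells of all 3 lines, though CD63 was above it in the second dormant HCC827 library, and LAMP2, ATP6V1A, NPC2 and CD63 among others in the second dormant HCC4006 library. It had 1513 and 1673 FPKM in dormant PC9, 856 and 803 FPKM in dormant HCC827, and 1588 and 22.9 FPKM in dormant HCC4006. DMSO cells had 193 and 184 FPKM in PC9, 166 and 21.2 FPKM in HCC827, and 428 and 415 FPKM in HCC4006. Its difference was 1.91 ± 0.91 with an adjusted p of 0.176 over all libraries, and 2.43 ± 0.11 (adjusted p = 1.68e-06) without the divergent libraries, which held its 2 lowest values. GRN, progranulin, the granulin precursor that binds prosaposin on the way to the lysosome, had 274 and 536 FPKM in dormant and 54.7 and 48.3 FPKM in DMSO PC9. In HCC827 it had 259.6 and 232 FPKM in dormant and 56.8 and 4.08 FPKM in DMSO cells, and in HCC4006 239 and 5.34 FPKM in dormant and 56.6 and 51.8 FPKM in DMSO cells. GRN differed by 2.07 ± 0.86 (adjusted p = 0.13), and by 2.36 ± 0.19 (adjusted p = 3.54e-05) without those libraries. In DMSO cells the most abundant of the 40 genes was NPC2 in PC9 (678 ± 4.4 FPKM) and CD63 in HCC827 (386 ± 25.2 FPKM) and HCC4006 (761 ± 124 FPKM; SD, n = 2 each).

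None of the genes of cholesterol export or the calcium channel gene passed the test with all libraries. NPC1, the membrane cholesterol transporter, differed by 0.40 ± 0.36, and its soluble partner NPC2 by 0.02 ± 0.31. NPC2 had 617 and 717 FPKM in dormant HCC827, above 286 and 395 FPKM in DMSO HCC827, but 208 and 81.4 FPKM in dormant HCC4006, below 220.1 and 289 FPKM in DMSO HCC4006. MCOLN1, the calcium channel TRPML1, stayed between 0.36 and 2.23 FPKM in dormant and 0.46 and 1.62 FPKM in DMSO libraries (0.45 ± 0.20). NPC1 and MCOLN1 were called without the divergent libraries, at 0.45 and 0.54, and NPC2 was not (0.32 ± 0.13).

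None of the 4 proton pump genes passed the test with all libraries, and all 4 did without the 2 divergent ones. ATP6V1A, the catalytic subunit, had 17.4 and 11.9 FPKM in dormant PC9 and 5.39 and 5.22 FPKM in DMSO PC9. In HCC827 it had 9.71 and 7.95 FPKM in dormant and 5.53 and 5.32 FPKM in DMSO cells, and in HCC4006 16.9 and 119 FPKM in dormant and 6.84 and 11.9 FPKM in DMSO cells. No line overlapped, and the difference was 1.37 ± 0.43 (adjusted p = 0.0589) with all libraries and 0.90 ± 0.20 (adjusted p = 0.0063) without them. The regulatory subunit ATP6V1H differed by 1.11 ± 0.40, the accessory subunit ATP6AP1 by 1.09 ± 0.74 and the membrane subunit ATP6V0D1 by 0.48 ± 0.77; without the divergent libraries these were 0.99, 1.35 and 0.63.

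**Figure D2:**
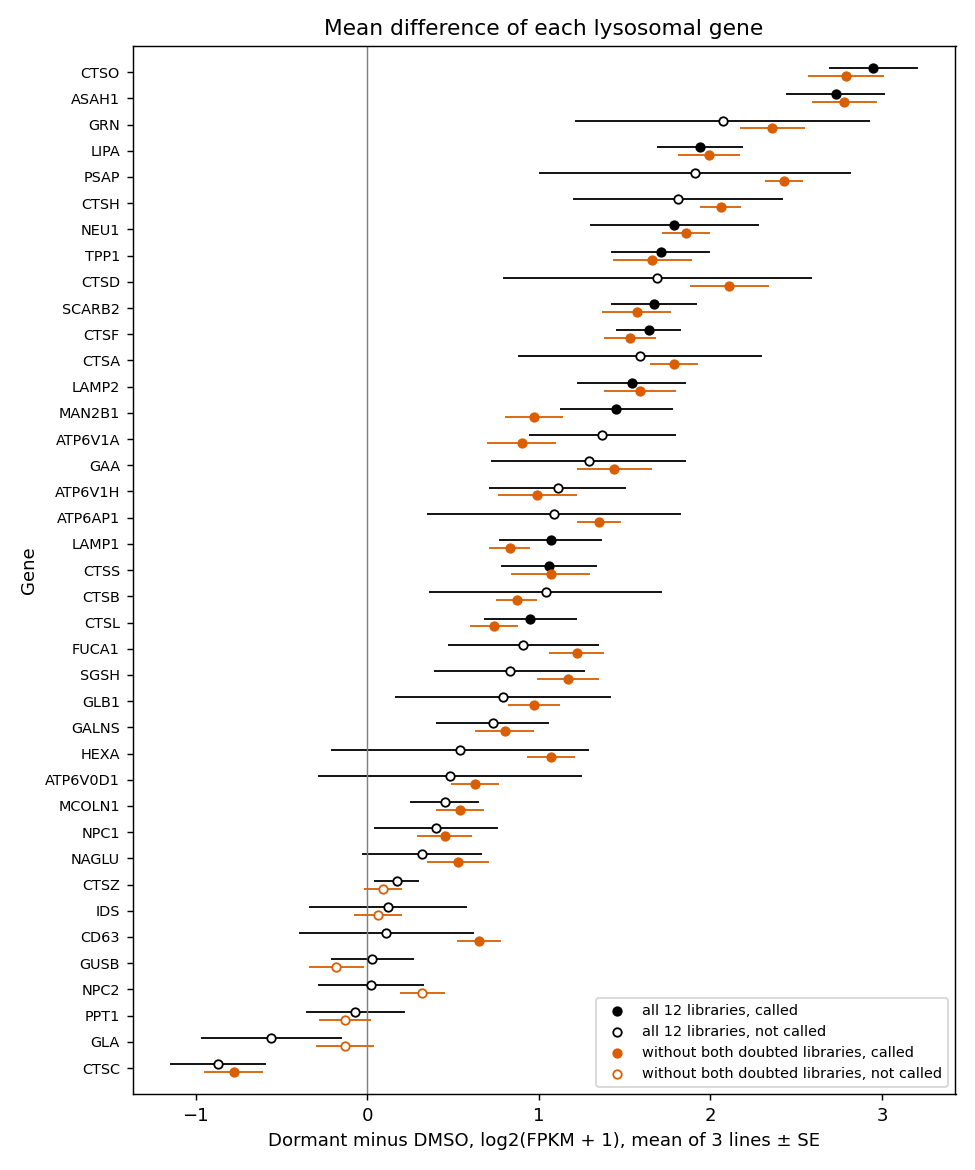
Difference dormant minus DMSO in log2(FPKM + 1), mean of the 3 lines ± SE, for the 39 tested lysosomal genes, in black with all 12 libraries and in orange without the 2 divergent (doubted) libraries; filled points were called at an adjusted p under 0.05. With all libraries 12 points are filled, and without the divergent ones 33, of which CTSC alone lies left of 0.

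**Figure D3:**
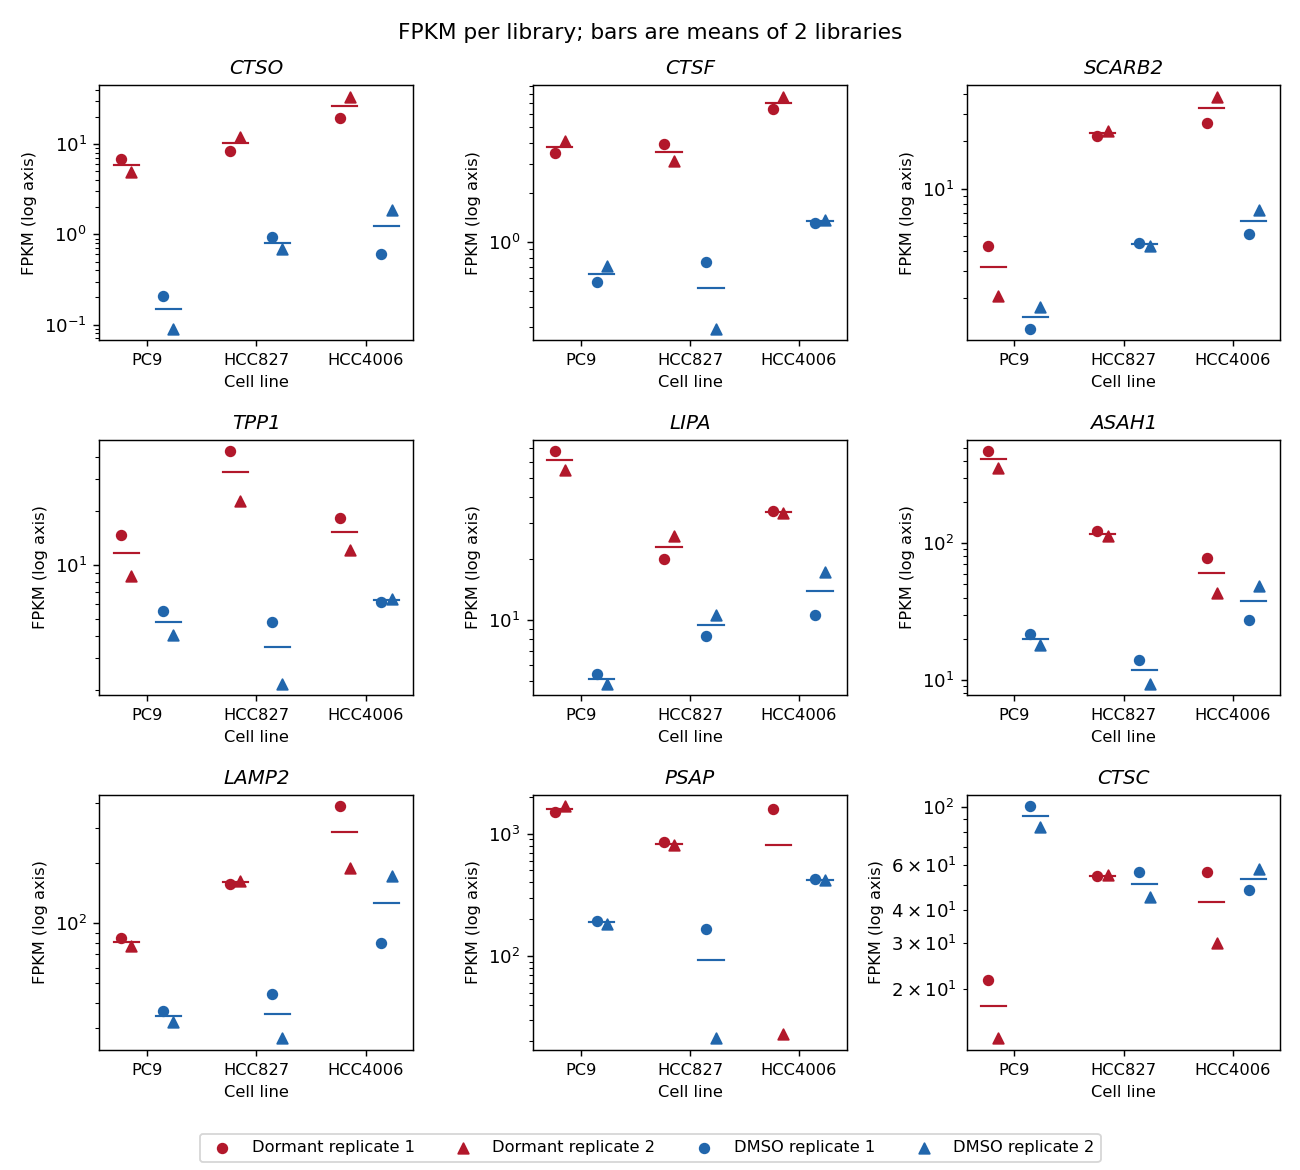
FPKM on log axes in each library for 9 lysosomal genes in PC9, HCC827 and HCC4006, with dormant in red on the left and DMSO in blue on the right of each line, circles for replicate 1, triangles for replicate 2 and bars for the mean of 2 libraries. CTSO, CTSF, SCARB2, TPP1, LIPA and LAMP2 do not overlap in any line, PSAP has a low triangle in dormant HCC4006 and in DMSO HCC827, and CTSC is low in dormant PC9.

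Within single lines fewer genes were called. In PC9, 4 of 39 rose (ASAH1, CTSF, CTSO and LIPA) and CTSC fell, where 1.82% of all genes rose and 0.891% fell. In HCC827, 5 rose (ASAH1, CTSF, CTSO, SCARB2 and TPP1) and 0 fell, where 3.06% rose and 1.44% fell. In HCC4006, 4 rose (CTSF, CTSO, CTSS and SCARB2) and 0 fell, where 4.88% rose and 1.18% fell. CTSO passed the filter through its dormant libraries only. Of the 36 genes that also pass it in DMSO cells, 3 rose in PC9, 4 in HCC827 and 3 in HCC4006. At an unadjusted p under 0.05, 0 members were lower in HCC827 or HCC4006, where 5.42% and 7.91% of all genes were. The counts of genes that rose without the divergent libraries, given next, each include LAMP1 and CTSO. Both passed the filter through their dormant libraries only. Without the divergent libraries, 26 of 39 rose in PC9 (13.1% of all genes), 21 in HCC827 (11.1%) and 16 in HCC4006 (14.9%). CTSC fell in PC9 (8.65% of all genes), and 0 fell in HCC827 (6.57%) and HCC4006 (3.72%). The median differences of the 39 genes were 1.10 in PC9, 1.58 in HCC827 and -0.26 in HCC4006 with all libraries, against 0.05, 0.22 and 0.15 over all genes. Without the divergent libraries the members' medians were 1.10 in PC9, 1.02 in HCC827 and 0.91 in HCC4006, against 0.05, 0.12 and 0.31 over all genes, and 36 of the 39 differences in HCC4006 were positive, against 16 with all libraries. Leaving out 1 library at a time kept the calls of ASAH1 in PC9 and CTSO in HCC4006 in all 12 cases, and lost each of the other line calls in 1 to 9 cases.

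Both dormant libraries lay above both DMSO libraries for 31 of 39 genes in PC9 (35.5% of all genes), 33 in HCC827 (40.1%) and 13 in HCC4006 (30.4%). Among the 36 genes that also pass the filter in DMSO cells, these counts were 29 in PC9, 31 in HCC827 and 10 in HCC4006. They lay below for 3 genes in PC9 (CTSB, CTSC and PPT1; 27% of all genes), 1 in HCC827 (GLA; 19.4%) and 2 in HCC4006 (IDS and NPC2; 15.8%). Dormant above DMSO in every line held for 10 genes (9.12% of all genes), namely ATP6V1A, CTSF, CTSL, CTSO, LAMP1, LAMP2, LIPA, MAN2B1, SCARB2 and TPP1. Of these, LAMP1 and CTSO passed the filter through their dormant libraries only. The order held for 8 of the 36 genes that also pass the filter in DMSO cells. The first dormant HCC4006 library taken alone lay above both DMSO libraries of its line for 33 of the 39 genes (55.7% of all genes). Without the divergent libraries, 28 genes were above in every line (21% of all genes) and 0 below (9.48%). Among the 36 genes, 30 lay above in the first dormant HCC4006 library taken alone. In every line without the divergent libraries, 26 of the 36 did.

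Whether the difference varied between lines was tested directly with limma's F test. No member passed it with all libraries, where 1.48% of all genes did; 9 members had an unadjusted p under 0.05, as did 12.4% of all genes. Without the divergent libraries 10 members passed (8.92% of all genes), namely ASAH1, CTSA, CTSB, CTSC, CTSH, CTSS, LIPA, NEU1, NPC2 and PSAP. In that fit PC9 had the largest difference of the 3 lines for ASAH1 (4.30 in PC9, 2.97 in HCC827 and 1.07 in HCC4006), LIPA (3.34, 1.35 and 1.29), CTSA (2.97, 0.87 and 1.53), NEU1 (2.77, 1.80 and 1.02) and PSAP (3.07, 2.31 and 1.91). HCC827 had the largest difference for CTSH (2.21 in PC9, 2.87 in HCC827 and 1.10 in HCC4006), CTSB (-0.12, 1.93 and 0.78) and NPC2 (0.02, 1.21 and -0.28), and HCC4006 for CTSS (-0.36, 1.02 and 2.56). CTSC stood alone in its lower value in PC9 (-2.39, against -0.04 in HCC827 and 0.10 in HCC4006).

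**Figure D4:**
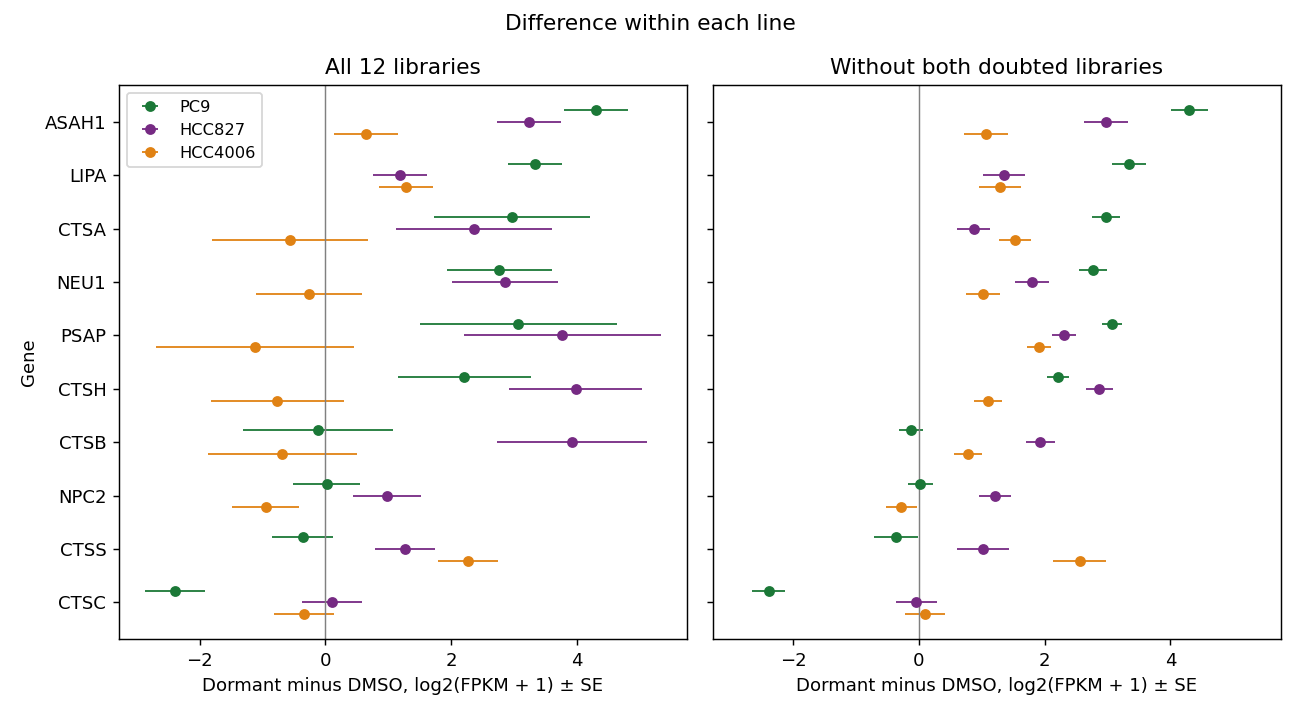
Difference dormant minus DMSO in log2(FPKM + 1) ± SE in PC9 (green), HCC827 (purple) and HCC4006 (orange) for the 10 genes whose difference varied between lines without the divergent libraries, with all 12 libraries on the left and without the 2 divergent (doubted) libraries on the right. Error bars are shorter on the right, and the points of PSAP, NEU1, CTSA and CTSH in HCC4006 lie below 0 on the left and above it on the right.

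Levels were also compared between the lines with limma's F test, first with all 12 libraries. Among dormant groups, 8 members (20.5%) differed, namely ASAH1, CTSA, CTSO, CTSS, CTSZ, GUSB, NPC2 and SCARB2, where 31.6% of all genes did. Among DMSO groups CTSH and CTSS (5.13%) differed, where 12% of all genes did. An unadjusted p under 0.05 was reached by 16 members among dormant groups (47% of all genes) and 9 among DMSO groups (28.2%). CTSH averaged 36 ± 2.7 FPKM in DMSO PC9, 11 ± 11 FPKM in DMSO HCC827 and 274 ± 24 FPKM in DMSO HCC4006 (SD, n = 2 each). Without the divergent libraries, 29 members differed among dormant groups (62.4% of all genes) and 21 among DMSO groups (48.4%).

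The base composition of the genes moved with the spread between replicates. The 40 genes had a median transcript GC content of 52.5%, against 48.6% over the tested genes with a value (14188 of 14699). In the second dormant HCC4006 library 31 of the 40 genes were lower than in the first, by a median of -1.46 on the log2(FPKM + 1) scale, and in the second DMSO HCC827 library 36 of 40 were lower, by a median of -0.86. Over all tested genes these medians were -0.30 and -0.13. In dormant HCC4006 the replicates differed most for PSAP (-6.06, GC content 54.7%), CTSD (-5.72, GC content 63.2%) and GRN (-5.24, 62.9%), while CTSO (0.77, 40.2%), SCARB2 (0.54, 43.9%) and LIPA (-0.03, 42.6%) differed little. Values at similar or higher GC content included HEXA (-5.13, 51.6%), LAMP1 (1.96, 54.2%), CTSF (0.23, 56.6%) and MAN2B1 (1.85, 59.4%). Across the 40 genes, which share these libraries, Spearman's rho between GC content and the replicate difference was -0.44 in dormant HCC4006 and -0.47 in DMSO HCC827, against -0.40 and -0.50 over all tested genes. It was also large in pairs that otherwise agreed, at 0.76 in dormant PC9 and -0.71 in DMSO HCC4006. The replicate differences of the 40 genes ran from -0.78 to 1.02 in dormant PC9 and from -0.35 to 1.17 in DMSO HCC4006. In dormant HCC4006 they ran from -6.06 to 2.74. The part of base composition in the calls was not tested.

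**Figure D5:**
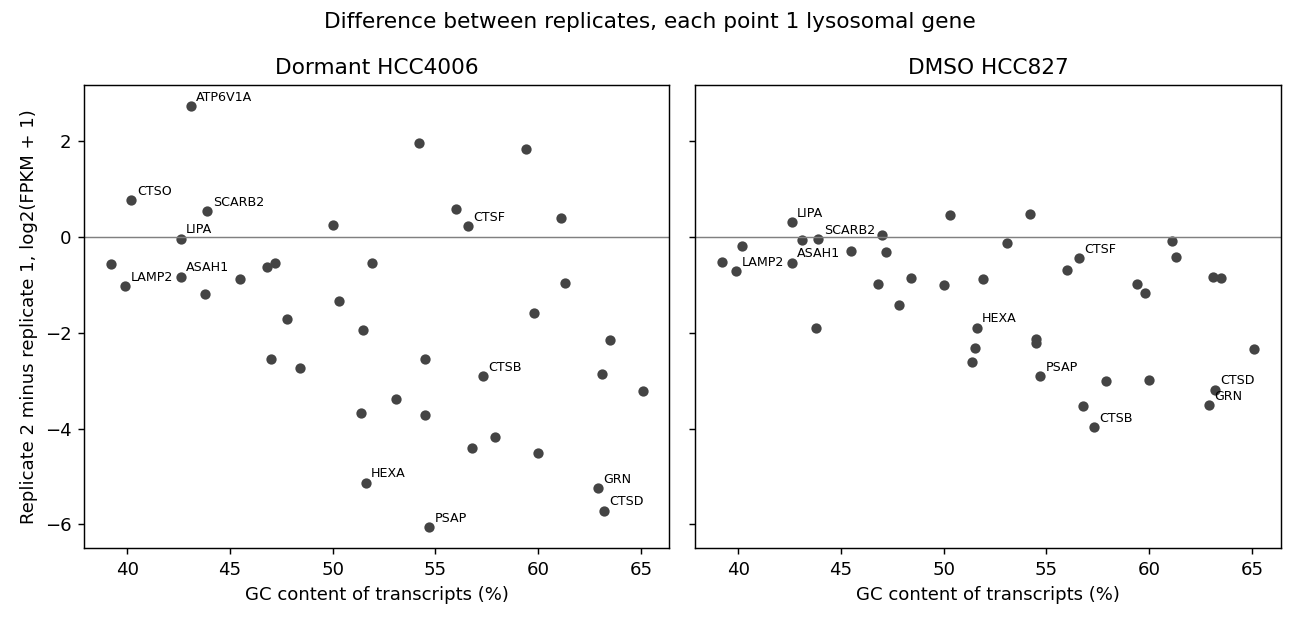
Difference between replicate 2 and replicate 1 in log2(FPKM + 1), on the vertical axis, against the GC content of each gene's transcripts in percent, for the 40 lysosomal genes in dormant HCC4006 on the left and DMSO HCC827 on the right. Most points lie below 0 (31 and 36 of 40), with PSAP, CTSD and GRN lowest in dormant HCC4006 and SCARB2 and LIPA close to 0 in both panels.

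Promoter windows were searched for the MiT factor motif because these genes are known to share it. Of the 40 genes, 28 have a RefSeq promoter of 300 bases (GRCh38.p14, 250 bases before to 50 after the start). CACGTG, which reads the same on both strands, occurs in 10 of these 28 (35.7%) and in 7.43% of 27305 promoters. The longer TCACGTG, on either strand, occurs in 9 (32.1%, against 3.82% of all), and the palindrome TCACGTGA, which contains both, in 6 (21.4%, against 1.04%). Shown are the windows of the 3 genes that rose in the mean and hold a match, LAMP1, CTSF and NEU1, and of CTSA and GAA, which hold the full palindrome. Each is written 5′ to 3′ on the gene's own strand, from 20 bases before its first match to 20 after its last within the 250 bases ahead of the start, with matches and any flanking T or A of the longer motif in capitals.
LAMP1 at chr13:113297026-113297237, plus strand: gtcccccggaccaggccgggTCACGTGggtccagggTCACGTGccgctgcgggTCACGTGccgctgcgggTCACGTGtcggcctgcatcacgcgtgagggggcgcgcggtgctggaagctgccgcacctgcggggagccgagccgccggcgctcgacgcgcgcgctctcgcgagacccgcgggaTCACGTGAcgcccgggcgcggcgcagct
CTSF at chr11:66568632-66568749, minus strand: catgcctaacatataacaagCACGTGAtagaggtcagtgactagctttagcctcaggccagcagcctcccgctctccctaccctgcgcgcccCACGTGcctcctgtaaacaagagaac
NEU1 at chr6:31862922-31862968, minus strand: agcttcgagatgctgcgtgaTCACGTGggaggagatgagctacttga
CTSA at chr20:45891272-45891334, plus strand: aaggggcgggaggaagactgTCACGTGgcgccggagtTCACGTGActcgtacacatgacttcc
GAA at chr17:80101484-80101576, plus strand: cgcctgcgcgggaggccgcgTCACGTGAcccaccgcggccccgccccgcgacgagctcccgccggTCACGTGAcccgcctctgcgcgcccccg

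The LAMP1 window holds 5 matches, the nearest 29 bases before the start, and those of CTSF, CTSA and GAA hold 2 each. CTSD, CD63, ATP6V0D1, GALNS and MCOLN1 hold the other matches. Of the 12 that rose in the mean, 8 have a promoter and 3 of these hold CACGTG, against 7 of 20 among the other members. CTSL, LIPA, MAN2B1, SCARB2 and TPP1 rose and have no CACGTG in this window. A match is only a description of these letters.

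Among the factors that bind this motif, TFEB did not pass the filter, with at most 1.41 FPKM in any library. TFE3 had 0.70 and 0.74 FPKM in dormant PC9, 0.885 and 1.24 FPKM in dormant HCC827, and 3.67 and 18.1 FPKM in dormant HCC4006, against 0.425 to 2.04 FPKM in DMSO cells. Its mean difference was 0.73 ± 0.31 (adjusted p = 0.143), and 0.42 ± 0.13 (adjusted p = 0.0304) without the divergent libraries. MITF did not pass the test (0.29 ± 0.26). GPNMB, a membrane glycoprotein and known MITF and TFE3 target, rose by 1.68 ± 0.24 (adjusted p = 0.00186), with 4.25 to 33.2 FPKM in dormant and 0.825 to 7.22 FPKM in DMSO libraries. Of 21 tested genes of MiT factors and lysosomal mTORC1 control, RRAGB, a Rag GTPase, was the only call (1.24 ± 0.26, adjusted p = 0.0122), and 12 rose without the divergent libraries, where 30% of all genes did.

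Further lysosomal genes, from lists of other hydrolases, membrane proteins, pump subunits and sorting proteins, are given by their counts in the mean of the lines, beside the 10.9% of all genes that rose and the median of 0.22. Of 29 other hydrolases and their modifiers, 9 rose and 1 fell, with a median difference of 0.85. SUMF1, the enzyme that activates all sulfatases, rose by 1.94 ± 0.48, a call lost in 9 of 12 leave-out cases, and the arylsulfatase ARSG by 1.39 ± 0.22. The hydrolase that fell was CTSV, a cathepsin closely related in sequence to CTSL (-1.63 ± 0.47, adjusted p = 0.0432). CTSV had 5.32 and 4.12 FPKM in dormant and 44.6 and 34.9 FPKM in DMSO PC9, and in HCC827 9.14 and 7.4 FPKM in dormant and 9.18 and 12 FPKM in DMSO cells. In HCC4006 it had 18.8 and 1.27 FPKM in dormant and 17.9 and 25.3 FPKM in DMSO cells, where the groups overlapped, while HCC827 was barely separated. Its call in the mean was lost in 10 of the 12 leave-out cases.

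Of 30 other membrane and activator proteins, 3 rose and 0 fell, with a median of 0.56. LAPTM4A, a small transmembrane protein, had 274 and 278 FPKM in dormant and 67.0 and 55.9 FPKM in DMSO PC9, 369 and 434 FPKM in dormant and 53.8 and 65.8 FPKM in DMSO HCC827, and 352 and 215 FPKM in dormant and 69.1 and 102 FPKM in DMSO HCC4006. It rose by 2.19 ± 0.27 (adjusted p = 0.00102) without overlap in any line. SLC17A5, the sialic acid exporter, rose by 2.17 ± 0.23 (adjusted p = 0.000445), and SLC38A9, the arginine sensor of mTORC1, by 0.91, a call lost in 8 of 12 leave-out cases. Of 17 other pump subunits, ATP6AP2, ATP6V1G1 and ATP6V1B1 rose (1.70, 1.32 and 0.72), 0 fell, and the median was 0.39. ATP6V1B1 was at 0 in all DMSO PC9 and HCC827 libraries and passed the filter through dormant PC9 alone (2.46 and 1.66 FPKM).

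Of 14 genes of mannose 6-phosphate sorting, 5 rose and 0 fell, with a median of 0.52. GNPTG and GNPTAB, subunits of the enzyme that begins the mannose 6-phosphate tag, rose by 1.95 ± 0.37 and 0.83, the mannose 6-phosphate receptor IGF2R by 1.10 ± 0.24 and the sorting receptor SORT1 by 1.02. Of these, GNPTG kept its call in all 12 leave-out cases, while GNPTAB lost it in 7, SORT1 in 8 and IGF2R in 4. None of 23 genes of lysosome fusion and positioning passed the test with all libraries in limma; 3 had an unadjusted p under 0.05, as did 32.3% of all genes, and 13 rose without the divergent libraries, where 30% of all genes did. Of 8 tested genes of lysosomal damage and exocytosis, GPNMB rose and LGALS1 fell. LGALS1, galectin-1, had 55.5 and 66.7 FPKM in dormant and 519 and 496 FPKM in DMSO PC9, and 24.5 and 23.9 FPKM in dormant and 304 and 288 FPKM in DMSO HCC827 (mean difference -2.62 ± 0.37, adjusted p = 0.00185). It was not called lower in HCC4006 with all libraries.

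Among 8 tested cystatins and other inhibitors of cathepsins, 2 rose and 3 fell. CST6, cystatin E/M, an inhibitor of CTSV and CTSL, had 126 and 165 FPKM in dormant and 34.2 and 32.3 FPKM in DMSO PC9, and 116 and 70.9 FPKM in dormant and 12.3 and 6.1 FPKM in DMSO HCC827. The groups did not overlap there, and in HCC4006 they did (403 and 78.9 FPKM in dormant, 331 and 238 FPKM in DMSO cells); its mean difference was 1.56 ± 0.42 (adjusted p = 0.034), a call lost in 9 of 12 leave-out cases. CST5, cystatin D, rose by 1.59 ± 0.31 (adjusted p = 0.00826). It had 13.8 and 15.2 FPKM in dormant and 0.115 and 0.315 FPKM in DMSO PC9, and at most 0.06 FPKM in HCC827. CST5 was not called higher in HCC4006 with all libraries. The salivary-type cystatins CST4 and CST1 fell in the mean by 1.25 and 0.76 on the log2(FPKM + 1) scale, through HCC4006, the only line in which they exceeded 1 FPKM.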

How the data were processed

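The deposited table holds FPKM values per gene, rounded to 0.01, in 24 columns, 2 for each of 12 libraries; per the labels' protocols these are stranded mRNA libraries. The submitters' processing notes list Cufflinks 2.2.1, DESeq2 1.10.1 and STAR 2.5.1b, and as builds GRCh37 and hg19, with no role or order. Both columns of a library were averaged and counted as 1 library. Sequencing depth is unknown from FPKM, so no counting interval is given.

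A model with 1 coefficient per group was fitted to log2(FPKM + 1) with limma 3.58.1 in R 4.3.3 (lmFit, eBayes with trend; 6 residual and 3.8 prior degrees of freedom) on the 14699 genes that reached 1 FPKM in 2 or more libraries; the pseudocount of 1 understates changes of low genes. All groups share 1 estimate of the spread per gene. These degrees of freedom are those of the fit with all libraries. Without the divergent libraries, the groups left with 1 library add nothing to that estimate. Tests were two-sided, adjusted by Benjamini-Hochberg over all genes tested, and checked on simulated data. There a log2 change of 1 was called in 19% of changed genes in the mean and 0% to 1% in a line. A change of 2 was called in 81% in the mean and 10% to 17% in a line. A gene that did not pass is therefore not shown to be unchanged. Python 3.11.15 and pandas 2.3.3 prepared the tables. The 40 genes, the lists, the tests and the 2 libraries left out together were chosen with earlier results of these data known. Members were named by being called in the mean, in a line or between lines, and of each list up to 4 called genes with the largest mean difference. PECAM1 was not found under its symbol and was not analysed here. A gene that met this rule is not reported here. Alternatives were pseudocount, filter, scaling, replicate block, single columns and leaving out libraries. GC content and promoters came from a later build than the values, matched by gene.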

Additional observations from a re-analysis of the deposited data

Results flagged for a closer look

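The difference between dormant and DMSO cells varied between lines for 2 cystatin genes, by limma's F test. CST4 had an adjusted p of 0.000844: it was at 0 and 0.165 FPKM in dormant HCC4006 and at 13.6 and 11.03 FPKM in DMSO HCC4006, and at most 0.18 FPKM in every PC9 and HCC827 library. CST1 had an adjusted p of 0.0118, with 0.38 and 0 FPKM in dormant and 3.86 and 3.96 FPKM in DMSO HCC4006, and at most 0.25 FPKM in the other lines. PC9 and HCC827 thus had next to no CST4 or CST1 RNA in either condition.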

How the results depend on the processing

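Over 1580 pairs of a setting and a named gene's mean difference, or its line difference where that was called with all libraries, 1316 kept their side of the threshold, 211 lost a call, 53 gained one and 0 reversed. Other members in HCC4006 were not among these pairs, and there 17 members were called lower without the first dormant HCC4006 library. Of the 39 tested members, 12 rose in the mean, against 7 with no filter on low values and 32 without the 2 divergent libraries. The count of members lower in the mean was 0, and 1 under median of ratios scaling, quantile normalization or without the divergent libraries. Members higher in PC9 were 4, against 2 with a replicate block and 26 without the divergent libraries, and members lower in PC9 were 1, against 0 with the block. Members higher in HCC827 were 5, against 2 with the block and 21 without the divergent libraries, and in HCC4006 4, against 2 and 16. Members whose difference varied between lines were 0, against 1 under each scaling and 10 without the divergent libraries. Members that varied between DMSO lines were 2, against 0 with no filter, 1 with quantile normalization, 0 with the block and 21 without the divergent libraries. Members that varied between dormant lines were 8, against 5 with a pseudocount of 0.1, 5 with no filter, 13 with quantile normalization, 5 with the block and 29 without the divergent libraries. Leaving out 1 library at a time gave 6 (without the second DMSO PC9 library) to 29 (without the second dormant HCC4006 library) members higher and 0 to 2 lower in the mean, 1 to 13 higher and 0 to 1 lower in PC9, 0 to 24 higher and 0 to 0 lower in HCC827, and 1 to 10 higher and 0 to 17 lower in HCC4006. The count of 17 came without the first dormant HCC4006 library, which leaves the divergent one alone. The same cases gave 0 to 30 members that varied between lines, 0 to 15 between DMSO lines and 3 to 33 between dormant lines. SCARB2, CTSF, CTSO, TPP1, ASAH1 and LIPA stayed called in the mean in all 12 cases; the cause of the other losses was not tested, though every case has fewer libraries.

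Of all genes called in the mean 70.5% rose, against 48.7% under median of ratios scaling and 49% under quantile normalization, which moved the median of all genes to 0.03 and that of the members to 0.76 and 0.86. The members' split was then 10 higher and 1 lower in both. Same-numbered libraries of a line did not deviate together in every line (r of 0.091 in PC9, 0.037 in HCC827 and 0.168 in HCC4006), so the numbers were not taken as pairs; with the replicate block, 8 of the 12 members stayed called in the mean. Depth is unknown, so genes near 1 FPKM, such as LAMP1, MCOLN1 and CTSZ, cannot be given a counting error.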
